A study of Rattus norvegicus with 19 samples.

Results

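Transthyretin (Ttr, ENSRNOG00000016275), insulin-like growth factor 2 (Igf2, ENSRNOG00000020369), aquaporin 1 (Aqp1, ENSRNOG00000011648) and Klotho (Kl, ENSRNOG00000001092) are 4 of the 32883 gene IDs counted in brain RNA of 19 female Wistar rats. They are markers of the choroid plexus, and the set was chosen from measured values, with results of these same 19 libraries known. Their levels and the way they move together are therefore descriptions, and no p-value is attached to them beyond a fit over all gene IDs. The IDs carry these symbols by the list that defined the set. The RefSeq table used here lists all 4 symbols and holds 0 Ensembl IDs, so it neither supports nor contradicts the pairing, and no ID was dropped.

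The rats were daughters of fathers from 4 groups. There were 5 daughters of control fathers, 4 of fathers fed a high-fat diet (HFD), 5 of fathers with early life stress (ELS, described for the series as maternal separation) and 5 of fathers with both (ELS-HFD). All daughters were fed chow and went through an elevated plus maze on postnatal day 57 ± 1, and their own age at collection is not given in the sources used here. Each sample label reads brain, as a lysate of whole tissue, while the series text names the amygdala and speaks of male rats. The sample labels were followed for sex, and no label gives litter, father or dissection batch, so p-values measure only the spread between these samples.

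The choroid plexus is an epithelium inside the brain ventricles that secretes cerebrospinal fluid. Its epithelial cells make transthyretin, which carries thyroid hormone and, bound to retinol-binding protein, retinol. They also carry the water channel aquaporin 1 on the ventricular face, make Klotho, a co-receptor for the hormone FGF23 that is also shed into the fluid, and together with the meninges are a main source of the growth factor Igf2 in the adult brain. The amygdala lies beside the temporal horn of the lateral ventricle, which holds choroid plexus.

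The 150 bases upstream of each annotated start are shown because the 4 genes moved together across libraries. They come from RefSeq (build GRCr8, all 4 symbols matched, 5 starts), whereas the reads were counted on Rnor_6.0. Each runs 5′ to 3′ along the gene, and capitals mark matches to a TATA box (TATAAA) or a GC box (GGGCGG) on either strand.
Ttr, chr18:12218608-12218757, plus strand: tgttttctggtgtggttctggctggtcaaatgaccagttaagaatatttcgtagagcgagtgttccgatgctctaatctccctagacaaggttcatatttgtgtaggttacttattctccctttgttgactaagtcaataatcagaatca
Igf2, first listed start, chr1:207253981-207254130, minus strand: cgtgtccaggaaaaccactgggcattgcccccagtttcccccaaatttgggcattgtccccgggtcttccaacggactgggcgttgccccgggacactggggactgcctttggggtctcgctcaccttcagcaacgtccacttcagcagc
Igf2, second listed start, chr1:207250476-207250625, minus strand: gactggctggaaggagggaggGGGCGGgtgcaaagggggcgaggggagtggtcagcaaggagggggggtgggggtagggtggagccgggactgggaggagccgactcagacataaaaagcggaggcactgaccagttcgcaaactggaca
Aqp1, chr4:85812634-85812783, plus strand: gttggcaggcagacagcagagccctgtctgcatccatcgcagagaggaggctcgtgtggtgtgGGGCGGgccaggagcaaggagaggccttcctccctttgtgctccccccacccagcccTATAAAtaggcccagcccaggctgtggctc
Kl, chr12:5325853-5326002, plus strand: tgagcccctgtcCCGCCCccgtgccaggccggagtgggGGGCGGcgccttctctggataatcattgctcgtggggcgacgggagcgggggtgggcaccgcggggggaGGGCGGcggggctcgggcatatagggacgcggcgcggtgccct

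No sequence motif was common to all 4 genes among the 3 that were searched for on both strands in the 250 bases upstream. The GC box was in the sequences of Kl (3 matches), Aqp1 and the second Igf2 start, and 30.5% of all 33469 promoters in the table hold it. The TATA box was found for Aqp1 only, 30 to 25 bases before the start, and is in 12.9% of promoters. The core that OTX homeodomain factors bind (TAATCC), a family with a member known in choroid plexus, was in none of the 5 sequences and is in 6.34% of promoters, which says only that these letters are absent from these windows. The GC content of the 150 bases was 39.3% for Ttr, 61.3% and 65.3% for the Igf2 starts, 64.7% for Aqp1 and 76.0% for Kl, against a median of 52.7% over the table.

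Library totals ran from 7034837 to 20266594 counts (median 14027828). On the first principal component of log2 expression (35.6% of the variance), HFD replicate 1 was at 127.7 and ELS-HFD replicates 2 and 3 at 44.2 and 45.0, with the other 16 libraries between -32.8 and 13.8. These 3 libraries stand apart. The correlations, the ratios and the comparisons that use the HFD or the ELS-HFD group are also given without them. Levels are in CPM, the count scaled to the total of its library, and are not per transcript length, so they compare libraries for 1 gene and not 1 gene with another.

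Ttr differed the most between libraries, from 0.694 to 11277 CPM. In daughters of control fathers it was at 4715, 2409, 1111, 891 and 319 CPM in replicates 1 to 5. In daughters of HFD fathers it was at 1.77, 2.55, 1.53 and 0.694 CPM in replicates 1 to 4, which rests on only 7 to 37 counts. The lowest control library thus lay far above the highest HFD library. The ELS libraries held 7.24, 1.74, 0.909, 1.15 and 4672 CPM, so that replicate 5 was at the level of the highest control while the other 4 were near the HFD libraries. In the ELS-HFD libraries Ttr was at 0.753, 855, 821, 5.08 and 11277 CPM. The group with both exposures therefore held the highest library of all, 2 libraries inside the control range and 2 below every control.

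The levels fell into separate clusters, with nothing between 7.24 and 319 CPM. Above this gap lay 9 libraries, the 5 controls, ELS replicate 5 and ELS-HFD replicates 2, 3 and 5. Below it lay 10 libraries, all 4 HFD, 4 ELS and 2 ELS-HFD. Group means follow from how many libraries lie on each side: 1889 ± 1755 CPM in control, 1.64 ± 0.766 in HFD, 937 ± 2088 in ELS and 2592 ± 4873 in ELS-HFD (SD, n = 5, 4, 5 and 5). By medians the order was control (1111), ELS-HFD (821), ELS (1.74) and HFD (1.65), and by means ELS-HFD came first. Neighbours in either order overlapped in range, and only control and HFD had no library in common range.

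**Figure D1:**
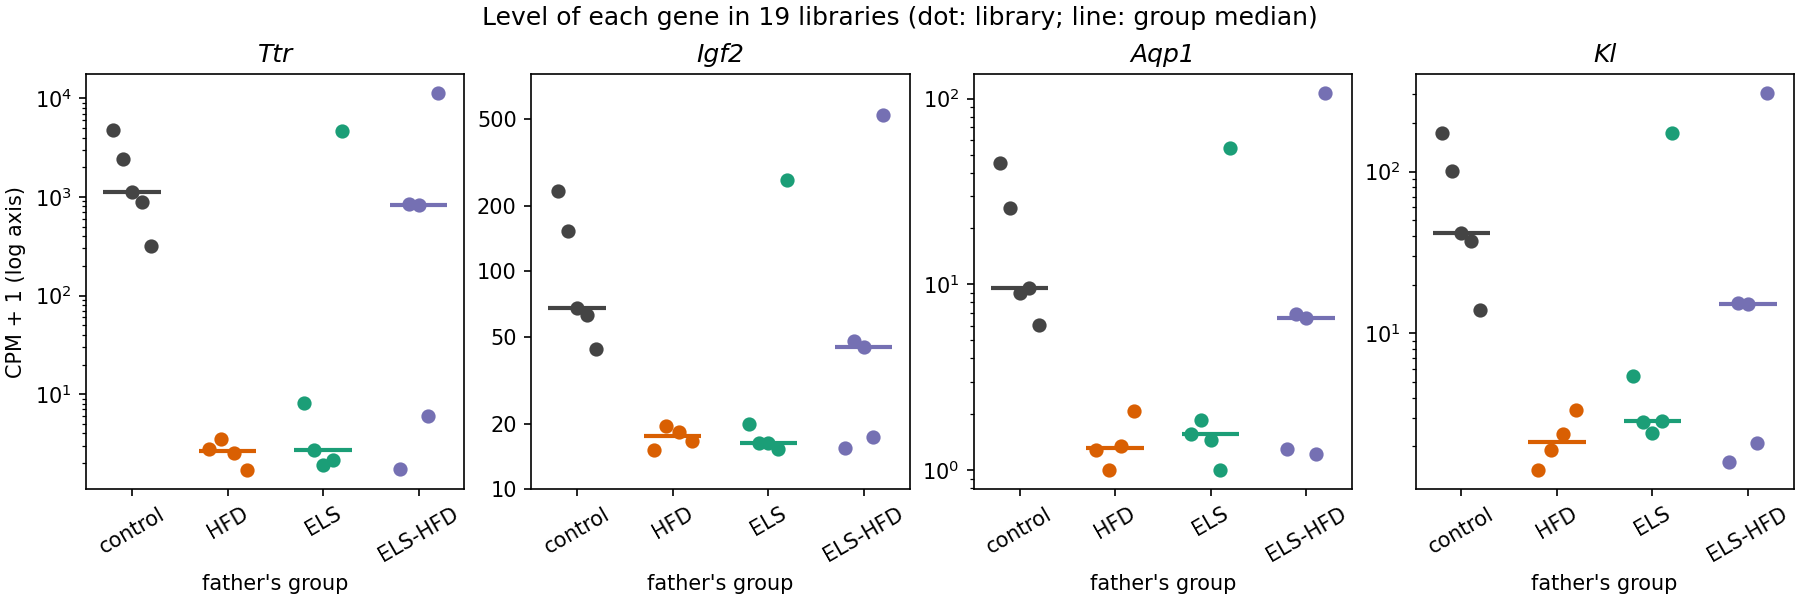
Level of Ttr, Igf2, Aqp1 and Kl as CPM + 1 on a log axis, 1 dot per library and a line at the group median. All 4 genes were lower in all 4 HFD libraries than in all 5 control libraries, and ELS replicate 5 and ELS-HFD replicates 2, 3 and 5 lay with the controls or above them.

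Igf2, a secreted growth factor that signals through the IGF1 receptor, showed the same division on top of a steady lower level. It was at 231, 151, 66.7, 61.7 and 42.9 CPM in control replicates 1 to 5. HFD replicates 1 to 4 had 14.04, 18.4, 17.4 and 15.6 CPM. The ELS libraries had 18.8, 15.2, 15.2, 14.3 and 261 CPM, again with replicate 5 alone at the control level. In the ELS-HFD libraries it was at 14.4, 46.8, 44.0, 16.4 and 518 CPM. The 10 libraries below the Ttr gap averaged 15.98 CPM with an SD of 1.71, where counting error alone would give 1.11. Igf2 was thus well above 0 where Ttr was nearly absent, with 157 to 267 counts per library. Group means were 111 ± 79.2 CPM in control, 16.3 ± 1.94 in HFD, 64.9 ± 110 in ELS and 128 ± 219 in ELS-HFD (SD, n = 5, 4, 5 and 5).

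Aqp1, a water channel that in the choroid plexus passes water towards the ventricle, was close to undetected in the low libraries. Control replicates 1 to 5 had 44.2, 24.7, 7.99, 8.63 and 5.08 CPM. HFD replicates 1 to 4 had 0.284, 0, 0.347 and 1.09 CPM, at most 11 counts. The ELS libraries had 0.568, 0.868, 0.454, 0 and 52.9 CPM. Aqp1 was therefore not detected in HFD replicate 2 and ELS replicate 4, where a count of 0 allows up to 0.207 and 0.246 CPM (3 counts), and was again high in ELS replicate 5. The ELS-HFD libraries had 0.301, 5.97, 5.62, 0.221 and 106 CPM, high in the same 3 libraries as Ttr. Group means were 18.1 ± 16.5 CPM in control, 0.43 ± 0.465 in HFD, 10.97 ± 23.5 in ELS and 23.6 ± 46.1 in ELS-HFD (SD, n = 5, 4, 5 and 5).

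Kl, which joins an FGF receptor to bind FGF23, was at 171, 100.2, 40.8, 36.3 and 12.9 CPM in control replicates 1 to 5. HFD replicates 1 to 4 had 0.425, 0.897, 1.39 and 2.38 CPM, from 6 to 24 counts. All HFD libraries were below all controls here too. In the ELS libraries Kl was at 4.47, 1.82, 1.44, 1.88 and 172 CPM. The ELS-HFD libraries had 0.603, 14.5, 14.3, 1.10 and 304 CPM, so that replicates 2 and 3 lay near the lowest control and replicate 5 above all controls. Group means were 72.3 ± 63.9 CPM in control, 1.27 ± 0.835 in HFD, 36.2 ± 75.7 in ELS and 67.0 ± 133 in ELS-HFD (SD, n = 5, 4, 5 and 5). ELS replicate 1 had both the highest Kl (4.47 CPM) and the highest Ttr (7.24 CPM) of the libraries below the gap. As these are bulk samples, fewer cells of a type and less RNA per cell cannot be told apart in any of these levels.

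Each of the 4 genes divided the 19 libraries in the same way. The genes were chosen as a set with these libraries known, so the shared division is a description and no separate support. The lowest library above the Ttr gap exceeded the highest below it by 44.1-fold for Ttr, the gene that set the gap. For the others it was 4.66-fold for Aqp1, 2.88-fold for Kl and 2.28-fold for Igf2. The medians on both sides differed by 681-fold for Ttr, 28.9-fold for Kl, 26.6-fold for Aqp1 and 4.33-fold for Igf2. Together the 4 genes took 1.22% of all counts in ELS-HFD replicate 5 and 0.0016% in ELS-HFD replicate 1, which are daughters of the same group of fathers.

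Because the libraries form clusters, correlations were read within each, on log2(CPM + 1), as descriptions with no p since the genes were chosen as a set. Among the 9 libraries above the gap, Pearson's r ran from 0.957 (Ttr and Kl) to 0.998 (Igf2 and Aqp1) over the 6 pairs, with a median of 0.973, and Spearman's rho from 0.967 to 1. Without the 2 libraries farthest from the median of the first gene of each pair, r was 0.922 to 0.997. Without ELS-HFD replicates 2 and 3, which stand apart, the 7 libraries left gave 0.976 to 0.998 with a median of 0.981. The controls thus had no single level of these genes: they spread 14.8-fold in Ttr, 13.3-fold in Kl, 8.70-fold in Aqp1 and 5.39-fold in Igf2. Among the 10 libraries below the gap the median r was 0.418, from -0.134 (Ttr and Aqp1) to 0.674 (Ttr and Igf2), with rho from -0.298 to 0.547. Ttr and Igf2, the pair with the highest r there, had a rho of 0.503, and r was 0.529 without the 2 libraries farthest from the median of Ttr and 0.75 on deviations from group means. For the median of the 6 pairs, leaving out ELS replicate 1 gave -0.0401 and leaving out HFD replicate 1, which stands apart, gave 0.37. All values share the library totals.

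**Figure D2:**
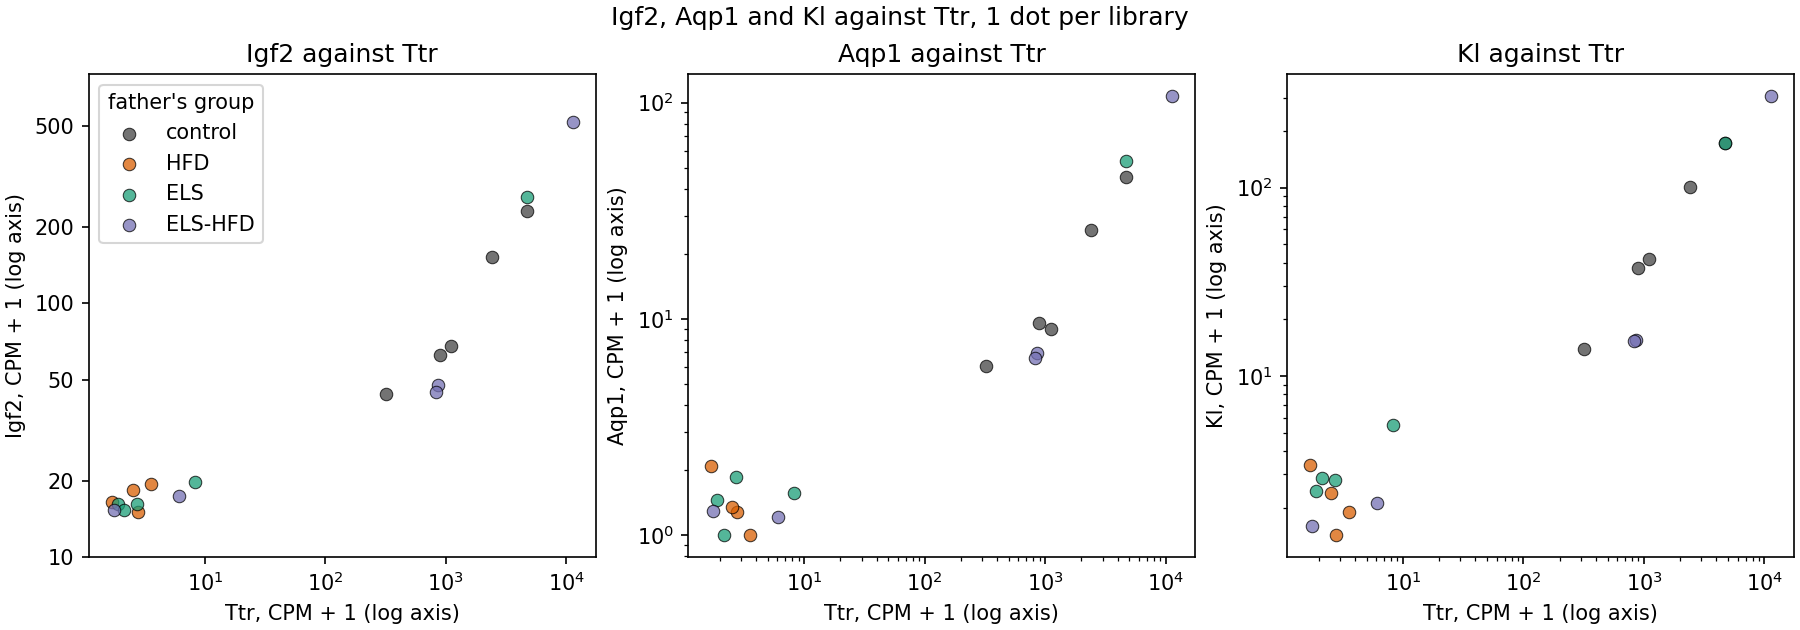
Igf2, Aqp1 and Kl against Ttr, all as CPM + 1 on log axes, 1 dot per library, coloured by the group of the father. The 9 libraries with Ttr of 319 CPM or more form a rising band and the other 10 a patch at the lower left, where Igf2 stays at 14.04 to 18.8 CPM.

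The proportions among the genes were measured in the 9 libraries with at least 1000 Ttr counts, as counts per 100 Ttr counts with exact 95% binomial intervals, which cover counting error only. The libraries were taken by their Ttr level, so group differences in these ratios were not tested. Aqp1 was at 0.938, 1.02, 0.72, 0.968 and 1.59 per 100 Ttr counts in the controls, 1.13 in ELS replicate 5, and 0.698, 0.684 and 0.94 in ELS-HFD replicates 2, 3 and 5. Over the 9 libraries this ratio stayed within a factor of 2.33. Igf2 was at 4.59 to 6.93 per 100 Ttr counts in 8 libraries and at 13.5 (12.3 to 14.7) in control replicate 5, the lowest of the 9 in Ttr. With the mean Igf2 level below the gap subtracted, it was 3.41 to 5.61 in those 8 libraries and 8.45 in control replicate 5. The mean over the libraries was 6.51 for Igf2 and 0.966 for Aqp1 (n = 9), and 6.82 and 1.04 without ELS-HFD replicates 2 and 3 (n = 7).

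The ratio of Kl to Ttr was alike in the controls and lower in the ELS-HFD libraries. The 5 controls had 3.63, 4.16, 3.67, 4.07 and 4.04 Kl counts per 100 Ttr counts (3.91 ± 0.245, SD, n = 5), and ELS replicate 5 had 3.67. ELS-HFD replicate 2 had 1.70 (1.38 to 2.06), replicate 3 had 1.74 (1.51 to 1.99) and replicate 5 had 2.70 (2.61 to 2.79). All 3 lay below the other 6 by more than counting error, the lowest interval of those 6 starting at 3.40. Replicates 2 and 3 are 2 of the libraries that stand apart on the first component (44.2 and 45.0), while replicate 5 was at -13.6 there; the part of this in the ratio was not tested. Without those 2 libraries and HFD replicate 1, a single ELS-HFD library remains, at 2.70. Kl was not the only gene low against Ttr there. With the level below the gap subtracted, Igf2 per 100 Ttr was 3.60, 3.41 and 4.45 in ELS-HFD replicates 2, 3 and 5. The other libraries were at 4.56 or more, although without the subtraction Igf2 overlapped the controls. Aqp1 was lowest in ELS-HFD replicates 2 and 3 (0.698 and 0.684), with replicate 5 (0.94) inside the control range.

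Igf2 and Aqp1 kept the steadiest proportion. After subtraction of their mean levels below the gap, Aqp1 was 18.6 ± 2.03 CPM per 100 CPM of Igf2 (SD, n = 9), between 14.95 in control replicate 3 and 21.4 in ELS replicate 5, a factor of 1.43. Kl per 100 CPM of Igf2 ran from 41.8 to 78.7, a factor of 1.88. Without the 3 libraries that stand apart, Aqp1 was at 18.7 ± 2.31 (SD, n = 7), and Kl ran from 41.6 to 78.7. Control replicate 5 (41.8) lay there with ELS-HFD replicates 2 and 3 (41.8 and 45.2), so the low Kl of the latter is seen against Ttr and not set apart from all controls against Igf2. A least squares line through all 19 libraries had an intercept of 18.3 ± 2.86 CPM (SE) for Igf2, beside the 15.98 CPM measured below the gap. For Aqp1 the intercept was 0.295 ± 0.617 CPM beside 0.413 measured, and for Kl 4.95 ± 3.89 beside 1.64. Without the 2 libraries highest in Ttr the intercepts were 14.7, -0.32 and -0.178 CPM.

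**Figure D3:**
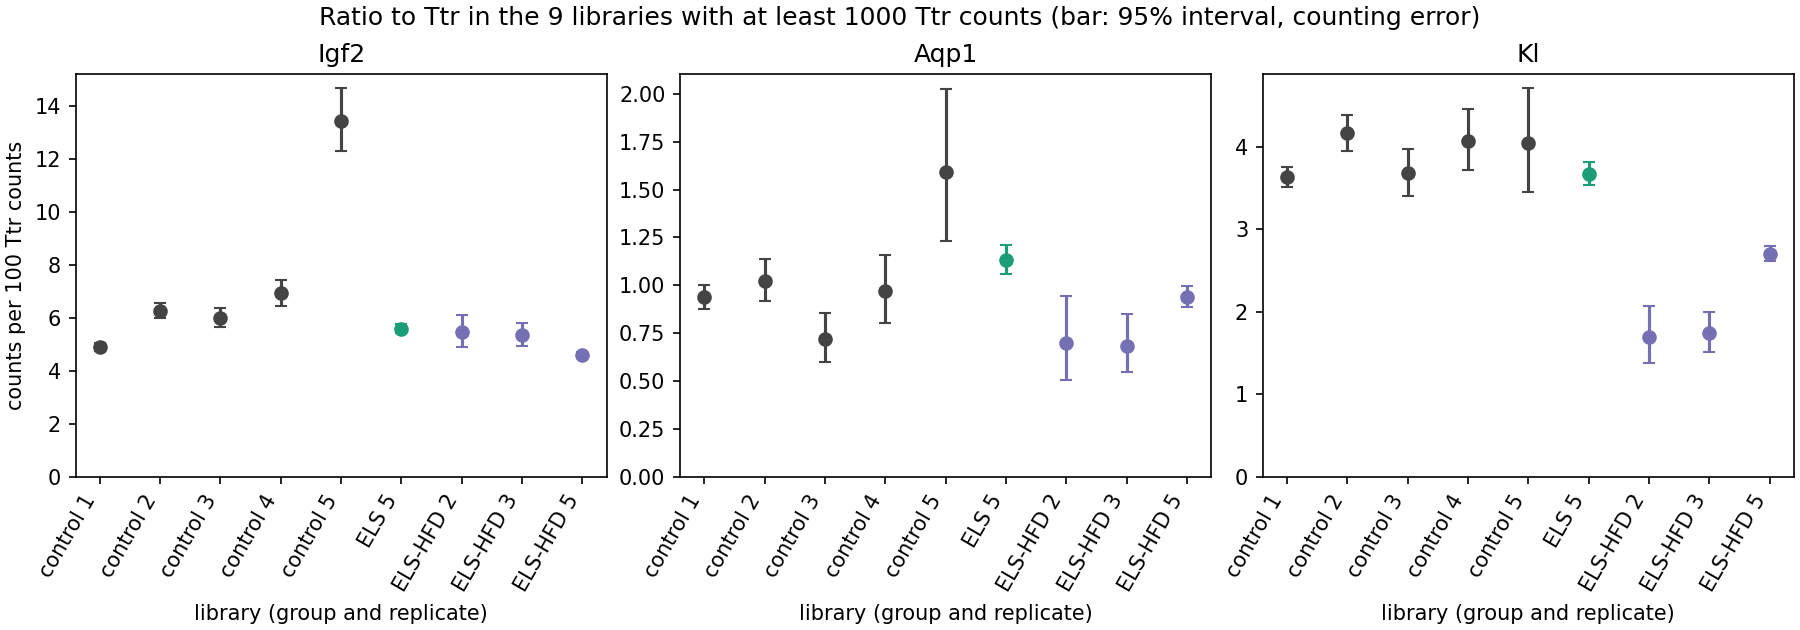
Counts of Igf2, Aqp1 and Kl per 100 Ttr counts in the 9 libraries with at least 1000 Ttr counts, with exact 95% binomial intervals. Kl was at 3.63 to 4.16 in the 5 controls and 3.67 in ELS replicate 5, and at 1.70 to 2.70 in the 3 ELS-HFD libraries; Igf2 stood out in control replicate 5 at 13.5.

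Likeness to the set was also ranked over the 15372 gene IDs kept by the filter on low counts, by Pearson's r of log2(CPM + 1) over all 19 libraries. Because of the 2 clusters this r mostly records on which side of the gap a library lies. Of the 15371 other IDs, Igf2 ranked first in likeness to Aqp1, and Aqp1 was at rank 3 for Igf2. Above the gap alone each ranked first for the other. For Ttr, Kl was at rank 9, Aqp1 at rank 11 and Igf2 at rank 16 over all libraries, but at ranks 75, 45 and 44 above the gap, where Ttr was at ranks 77 to 80 for the other 3. Kl was at rank 49 for Igf2 and 66 for Aqp1 above the gap, and Igf2 was at rank 24 and Aqp1 at rank 36 for Kl. IDs outside the set were thus closer to Ttr and to Kl there than its members were. The 2 IDs outside the set with the highest mean r over the 4 genes were ENSRNOG00000054495 (0.983) and ENSRNOG00000010378 (0.982). ENSRNOG00000054495 was at 0 to 0.284 CPM below the gap and at 5.76 to 159 CPM above it. ENSRNOG00000010378 was at most at 0.851 CPM below and at 5.54 to 153 CPM above. A mean r of at least 0.9 was reached by 84 of the 15368 IDs outside the set (0.547%).

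HFD against control sets daughters of fathers on the diet beside daughters of unexposed fathers. All 4 genes were lower in every HFD library than in every control library, and 2.37% of the gene IDs tested were. This contrast is among the values that chose the set, so nothing is read from that count. The edgeR log2 fold changes were -10.00 ± 3.09 (SE) for Ttr, -5.79 ± 1.93 for Kl, -5.40 ± 2.03 for Aqp1 and -2.65 ± 1.09 for Igf2. edgeR's quasi-likelihood test over all libraries called none of the 4 at an adjusted p under 0.05 (adjusted p = 0.616 for each) and 0% of all IDs. All 4 were at an unadjusted p under 0.05, as were 7.79% of all IDs. DESeq2 called Ttr alone of the 4 (adjusted p = 0.000409) with 0.0325% of all IDs called, and an edgeR fit to these 2 groups alone also called Ttr only (adjusted p = 0.0129; 0.0203% of IDs). Over all alternatives the adjusted p of Ttr ran from 0.000409 to 1.00. limma-voom called none of the 4, with 2 of them and 974 of 15372 IDs at an unadjusted p under 0.05. Without the 3 libraries that stand apart edgeR gave -10.1 for Ttr, -5.57 for Kl, -5.38 for Aqp1 and -2.67 for Igf2. None was called (adjusted p = 0.996 for each), with all 4 and 690 of 15470 IDs at an unadjusted p under 0.05.

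ELS against control compares daughters of stressed and unstressed fathers on ordinary food. The log2 fold changes were -1.08 ± 1.84 (SE) for Ttr, -1.06 ± 1.33 for Kl, -0.83 ± 0.933 for Igf2 and -0.77 ± 1.33 for Aqp1, all smaller than their errors. ELS replicate 5 set these values, since without it they were -9.42 for Ttr, -4.92 for Kl, -5.24 for Aqp1 and -2.82 for Igf2. In that fit all 4 were at an unadjusted p under 0.05, as were 863 of 15315 IDs, but none was called. edgeR called 0 of the 4 (adjusted p = 0.913 to 0.928) and 0% of IDs, with 0 of the 4 and 4.35% of all IDs at an unadjusted p under 0.05. DESeq2 also called none of the 4, and 1 of 15372 IDs. limma-voom called none (adjusted p = 0.86 for each) but gave larger differences, -6.78 for Ttr, -3.69 for Aqp1, -3.11 for Kl and -1.67 for Igf2. There 3 of the 4 were at an unadjusted p under 0.05, as were 791 of 15372 IDs.

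ELS-HFD against control compares fathers with both exposures and fathers with neither. The log2 fold changes were 0.40 ± 1.82 (SE) for Ttr, 0.32 ± 1.32 for Aqp1, 0.15 ± 0.926 for Igf2 and -0.17 ± 1.31 for Kl. edgeR called 0 of the 4 (adjusted p = 0.965 to 0.983) and 0% of IDs, with 0 of the 4 and 4.18% of all IDs at an unadjusted p under 0.05. DESeq2 and limma-voom called none of the 4 and 0 of 15372 IDs. The direction for Ttr, Igf2 and Aqp1 rested on ELS-HFD replicate 5: without it they were at -2.15, -1.85 and -2.62. Kl, below control with all libraries, was at -3.26 without it. In that edgeR fit 2 of the 4 and 880 of 15320 IDs were at an unadjusted p under 0.05, with no call. limma-voom had all 4 below control, Ttr at -3.41, Igf2 at -0.96, Aqp1 at -2.27 and Kl at -2.70. There 1 of the 4 was at an unadjusted p under 0.05, as were 688 of 15372 IDs. Without the 3 libraries that stand apart edgeR gave 0.92, 0.65, 0.88 and 0.42, with no call.

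ELS-HFD against ELS sets fathers with both exposures beside fathers with stress alone. The log2 fold changes were 1.48 ± 1.85 (SE) for Ttr, 1.09 ± 1.34 for Aqp1, 0.98 ± 0.936 for Igf2 and 0.88 ± 1.33 for Kl. edgeR called 0 of the 4 (adjusted p = 0.537 to 0.709) and 0% of IDs, with 0 of the 4 at an unadjusted p under 0.05 although 19.8% of all IDs were. DESeq2 called none of the 4 but 146 of 15372 IDs. limma-voom called none of the 4 and 0 of 15372 IDs. The difference in Ttr turned to -1.07 without ELS-HFD replicate 5 and became 9.82 without ELS replicate 5, and the other 3 genes moved in the same directions. Without the 3 libraries that stand apart it was 1.997 for Ttr, 1.47 for Igf2, 1.64 for Aqp1 and 1.46 for Kl, and with limma-voom 3.38, 0.71, 1.42 and 0.41, with no call.

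ELS-HFD against HFD sets both exposures beside the diet alone. The log2 fold changes were 10.4 ± 3.13 (SE) for Ttr, 5.72 ± 2.05 for Aqp1, 5.62 ± 1.93 for Kl and 2.80 ± 1.10 for Igf2. The groups overlapped in all 4 genes, since ELS-HFD replicate 1 lay at the level of the HFD libraries. edgeR called 0 of the 4 (adjusted p = 1.00) and 0% of IDs, with all 4 genes and 3.38% of all IDs at an unadjusted p under 0.05. DESeq2 called Ttr alone of the 4 (adjusted p = 0.000113, and 0.000113 to 1 over all alternatives; 0.0195% of IDs called). limma-voom called none, with 0 of the 4 and 318 of 15372 IDs at an unadjusted p under 0.05. Its differences were smaller, 6.16 for Ttr, 3.47 for Aqp1, 2.75 for Kl and 1.42 for Igf2. Without ELS-HFD replicate 5 the edgeR log2 fold changes were 7.85 for Ttr, 2.78 for Aqp1, 2.53 for Kl and 0.79 for Igf2. In that fit 1 of the 4 and 306 of 15320 IDs were at an unadjusted p under 0.05. With the 3 libraries that stand apart left out, edgeR gave 11.03 for Ttr, 6.26 for Aqp1, 5.99 for Kl and 3.32 for Igf2. None was called (adjusted p = 0.848 for each), with all 4 and 832 of 15470 IDs at an unadjusted p under 0.05. Of the ELS-HFD libraries left there, only replicate 5 lay above the Ttr gap.

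The interaction asks whether the difference that goes with paternal HFD depends on the father's early life. It was 11.5 ± 3.51 (SE) on the log2 scale for Ttr, 6.67 ± 2.31 for Kl, 6.50 ± 2.44 for Aqp1 and 3.63 ± 1.42 for Igf2. It uses the control, HFD, ELS and ELS-HFD libraries of the comparisons above and so is not separate from them. edgeR called 0 of the 4 (adjusted p = 0.969) and 0% of IDs, with all 4 genes and 5.13% of all IDs at an unadjusted p under 0.05. DESeq2 called Ttr (adjusted p = 0.0214) with 0.0325% of IDs called. Over all alternatives its adjusted p ran from 0.0214 to 1.00. edgeR without ELS replicate 5 also called Ttr (19.8 on the log2 scale, adjusted p = 0.0428), with 12 of 15315 IDs called. The other 3 genes also moved without that library, to 10.5 for Kl, 10.96 for Aqp1 and 5.62 for Igf2, and without ELS-HFD replicate 5 to 3.58, 3.56 and 1.62, with no call. limma-voom called none of the 4, with 3 of them and 649 of 15372 IDs at an unadjusted p under 0.05. Without the 3 libraries that stand apart edgeR gave 12.1 for Ttr, 7.03 for Kl, 7.02 for Aqp1 and 4.14 for Igf2. None was called (adjusted p = 0.358 for each), with all 4 and 2016 of 15470 IDs at an unadjusted p under 0.05.

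**Figure D4:**
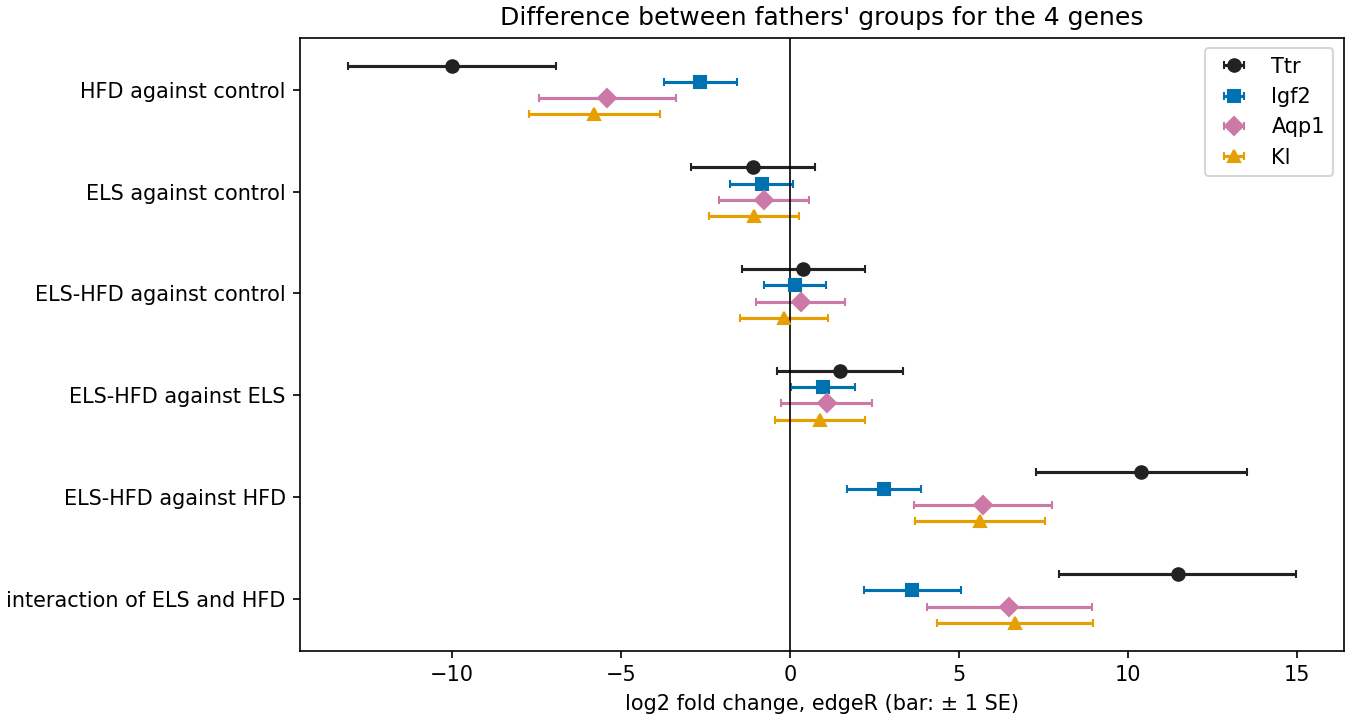
edgeR log2 fold change of the 4 genes in each comparison of the fathers' groups, with bars of ± 1 SE. Ttr had the largest absolute log2 fold change of the 4 in all 6 comparisons and Igf2 the smallest in 4, those of HFD with control (-10.00 and -2.65), ELS-HFD with HFD (10.4 and 2.80), ELS-HFD with control (0.40 and 0.15) and the interaction (11.5 and 3.63); no gene was called in any of the 6.

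Whether choroid plexus was taken along with some of the dissected samples was not tested, since other marker genes of that epithelium, of ependyma, meninges or the amygdala could not be matched to gene IDs here. What was measured is that the 4 genes were high together across 9 libraries of 3 groups. Ratios to Ttr there spread over a factor of 2.93 for Igf2, 2.45 for Kl and 2.33 for Aqp1. Daughters within the ELS and within the ELS-HFD groups differed in Ttr by up to 5141-fold and 14970-fold.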

How the data were processed

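For each of 19 libraries the authors deposited raw read counts by Ensembl ID, in whole numbers and not normalized, as the values show. Libraries were made from about 400 ng of RNA with poly-A enrichment and random priming, per the labels' protocols. The submitters' processing notes name Rnor_6.0 and DESeq2. Aligner, annotation release, strand and multi-mapped reads were not given in the sources used here, so overlapping transcripts (Igf2 has close neighbours) cannot be separated. Each column carries the number that its sample's description holds.

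CPM was computed from column sums, and log2 values with a pseudocount of 1 CPM. The fit was edgeR 4.0.16 in R 4.3.3 with TMM, filterByExpr and the quasi-likelihood F test. It covered 15372 IDs in 1 fit over the 4 groups, with calls at a Benjamini-Hochberg adjusted p under 0.05. It was tried on simulated counts without clusters inside groups, so that trial does not cover genes divided like these 4. The SE is the log2 fold change divided by the square root of F. Alternatives were DESeq2 1.42.0, limma-voom 3.58.1, other size factors, no filter, fits to 2 groups, a replicate block, and libraries left out. Depth of 7034837 to 20266594 counts sets 3 counts at 0.148 to 0.426 CPM.

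The genes, lists and motifs were chosen with earlier results of these data known. The genes named are the 4 and the 2 IDs of highest mean r. The 11 marker lists need symbols, which no table here pairs with the IDs, and were not tested.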

Additional observations from a re-analysis of the deposited data

Results flagged for a closer look

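ELS replicate 5 lay far above the other 4 ELS libraries in each of the 4 genes, at 12.19 for Ttr, 8.03 for Igf2, 5.75 for Aqp1 and 7.43 for Kl on the log2(CPM + 1) scale. These are the only ones of 16 groups of values, 4 genes in 4 groups, in which a single library stood this far from the rest. Chance flags about 1 in 20 such groups, and because the 4 genes move together the 4 values amount to 1 library standing apart.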

How the results depend on the processing

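The count of genes called among the 4 stayed at 0 in each comparison with other size factors, with limma-voom, without the filter, with the replicate block and without the 3 libraries that stand apart. It was 1 (Ttr) with DESeq2 for HFD against control, ELS-HFD against HFD and the interaction, and 1 in the fit to HFD and control alone. Leaving out 1 library gave 0 to 1 for the interaction and 0 elsewhere. ELS-HFD against control reversed: with limma-voom Ttr was at -3.41, Igf2 at -0.96 and Aqp1 at -2.27, with the replicate block -3.13, -1.44 and -2.40, and Kl was at 0.42 without the 3 libraries. With 1 library left out it ran from -2.15 to 1.07 for Ttr, -1.85 to 0.61 for Igf2, -2.62 to 0.97 for Aqp1 and -3.26 to 0.43 for Kl. ELS-HFD against ELS ran from -1.07 to 9.82 for Ttr, -1.02 to 2.98 for Igf2, -1.84 to 5.56 for Aqp1 and -2.20 to 4.75 for Kl. The cause was not tested beyond the libraries named in the report.

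The median r of the pairs above the gap was 0.95 without the 2 libraries farthest from the median. Below the gap it ran from -0.0401 (without ELS replicate 1) to 0.484 with 1 library left out. With the replicate block ELS against control was -8.12 for Ttr, -2.39 for Igf2, -4.15 for Aqp1 and -4.30 for Kl. All 4 were at an unadjusted p under 0.05, as were 769 of 15372 IDs. ELS-HFD against HFD was 7.15, 0.97, 2.70 and 2.50 with the block, with 1 of the 4 and 285 of 15372 IDs at an unadjusted p under 0.05. ELS-HFD against ELS was 4.998 for Ttr with the block. The labels do not say that replicate numbers pair the samples. Of 27 same-number pairs, 9 had deviations correlated above 0.1 (-0.436 to 0.568), and 6 of 19 libraries were closest to their own number. No chance level was set for these counts, so they do not decide whether the numbers pair samples. Counts of 0 to 11 for Aqp1 and 6 to 63 for Kl limit any comparison among the low libraries.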
